A study of Mus musculus with 29 samples.

Results

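The genes described here were the granzymes Gzma, Gzmb and Gzmk, the pore-forming protein perforin (Prf1), the granule membrane protein Nkg7, the death ligand Fasl and the granule-associated protease cathepsin W (Ctsw). They were taken by symbol from the count table, and all 7 symbols were found among its 24421 genes. The libraries came from 29 female C57BL/6J mice, 5 to 6 weeks old at the start, that were injected IP with YTN16 cells, a gastric cancer (GC) line that grows in immunocompetent mice, on day 0. RNA was extracted from stripped peritoneum, which held nodules in some mice and none in others, with 1 library per mouse, and read pairs were counted per gene over exons. Mice were treated with anti-PD1 at 10 mg/kg, anti-CTLA4 at 5 mg/kg, both (dual ICI) or PBS (untreated) on days 5, 8 and 12, and in the longer experiment also on days 21 and 28.

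Mice of the 3wk groups (5 untreated and 5 dual ICI) were killed on day 21, and those of the 5wk groups on day 35 (5 untreated, 5 anti-PD1, 4 anti-CTLA4 and 5 dual ICI). Mouse numbers are those of the library titles. For dual ICI mice at 3wk the column headers of the counts carry other numbers, with gaps between them. Whether more such mice existed, and how these were chosen, is not given in the sources used here. Of the 5 dual ICI mice at 5wk, 2 (mice 1 and 5) were uncured and 3 (mice 2, 3 and 4) were cured, with the library numbers taken as the mouse numbers of the study. One of the anti-PD1 mice was cured too, but the labels do not say which. No mouse without YTN16 cells was analysed here. Library totals lay between 25989217 and 31219650 counts. The labels name the tissue as tumor, but the summed level of a list of 14 gastric epithelium genes was at most 96.4 CPM (counts scaled to library size) in the 3 cured mice and 61.7 in anti-PD1 mouse 5, against 3489 to 4251 in the 2 uncured mice. Skeletal muscle genes held 20.4% to 21.98% of the counts of the cured mice and 5.19% to 7.41% of those of the uncured mice. Each library holds a mixture of all cells of the tissue, so fewer cytotoxic cells and less RNA per cell cannot be told apart in any value below.

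Cytotoxic T lymphocytes and natural killer (NK) cells kill by releasing granules onto a target cell. Perforin forms pores in the target membrane, and granzymes, a family of serine proteases stored on a serglycin matrix, pass through and cleave proteins that start cell death. Nkg7 is a membrane protein of these granules that takes part in their release, cathepsin W is a papain-like protease found mostly in CD8 T and NK cells, and Fas ligand on the killer's surface acts through the death receptor Fas without granules.

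The 7 genes lie on 6 chromosomes of the mouse genome (GRCm38). Gzma (chr13:113093825-113100981) and Gzmk (chr13:113171608-113225908) are neighbours on the minus strand of chromosome 13, Gzmb (chr14:56258838-56262260) and Fasl (chr1:161780689-161788495) are on minus strands as well, and Prf1 (chr10:61297833-61304680) and Nkg7 (chr7:43437073-43438249) are on plus strands. Ctsw (chr19:5465043-5468507, minus strand) overlaps Fibp and Gzmk overlaps Esm1, each on the opposite strand. The library kit named in the labels is not sold as a strand-marking one and no source used here gives a strand setting for counting, so reads from the shared stretches may not be told apart. At 3wk the log2 fold change of dual ICI against untreated mice was 0.07 (SE 0.12, edgeR adjusted p = 0.913) for Fibp and -0.62 (SE 0.29, edgeR adjusted p = 0.489) for Esm1. Fibp, with 464 to 1456 counts, was not flat everywhere. It was at 0.71 (SE 0.15, edgeR adjusted p = 0.0155) for untreated mice at 5wk against 3wk. For cured against untreated mice it was at -0.55 (SE 0.21, edgeR adjusted p = 0.0523), and for uncured against untreated mice at -0.21 (SE 0.23).

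Promoter windows of 300 bases, 250 before and 50 after the start site (RefSeq, GRCm38.p6), were found for 6 of the 7 genes and not for Ctsw. The gene positions above came from another annotation (GENCODE), and its gene ends differ from these start sites for some genes. The window of Gzmb lies wholly before the gene as given above, and that of Gzmk lies inside it. The windows of Nkg7, Gzmk and Gzmb are shown, since Nkg7 and Gzmk passed the adjusted threshold at 3wk and Gzmb held 4 of the 13 motif matches found. Capitals mark matches, on either strand, to the T-box motif GGTGTG, the RUNX motif TGTGGT, the AP-1 motif TGANTCA, the NFAT motif GGAAAA and the STAT motif TTCNNNGAA. No matches of different motifs overlapped.
Nkg7 promoter (chr7:43436888-43437187, plus strand): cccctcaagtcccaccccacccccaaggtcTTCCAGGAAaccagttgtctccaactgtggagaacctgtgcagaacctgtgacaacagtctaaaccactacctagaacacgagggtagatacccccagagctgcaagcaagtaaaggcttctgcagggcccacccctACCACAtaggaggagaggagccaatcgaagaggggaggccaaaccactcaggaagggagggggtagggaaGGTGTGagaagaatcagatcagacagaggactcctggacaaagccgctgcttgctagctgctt
Gzmk promoter (chr13:113180916-113181215, minus strand): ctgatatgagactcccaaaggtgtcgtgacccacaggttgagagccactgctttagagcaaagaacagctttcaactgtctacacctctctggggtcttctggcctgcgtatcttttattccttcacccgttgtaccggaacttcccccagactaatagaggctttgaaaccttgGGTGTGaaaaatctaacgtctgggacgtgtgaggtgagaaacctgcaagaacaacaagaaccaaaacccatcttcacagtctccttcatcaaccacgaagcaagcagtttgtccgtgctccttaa
Gzmb promoter (chr14:56262285-56262584, minus strand): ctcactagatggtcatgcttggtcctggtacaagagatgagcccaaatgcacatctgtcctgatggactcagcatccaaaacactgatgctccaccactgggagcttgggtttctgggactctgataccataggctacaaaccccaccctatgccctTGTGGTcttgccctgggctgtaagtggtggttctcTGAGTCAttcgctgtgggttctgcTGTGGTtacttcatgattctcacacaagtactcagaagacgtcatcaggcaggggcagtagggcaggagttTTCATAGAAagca

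In these windows the capitals are, in order, a STAT, a RUNX and a T-box match for Nkg7, a T-box match for Gzmk, and a RUNX, an AP-1, a second RUNX and a STAT match for Gzmb. The T-box motif was present in 3 of the 6 windows (Gzmk, Nkg7 and Fasl) and in 19.0% of 32851 promoters of the same length, and the RUNX motif in 4 of 6 (Gzma, Gzmb, Prf1 and Nkg7) and in 16.8%. AP-1 was in 1 of 6 and 7.81%, NFAT (Gzma and Fasl) in 2 of 6 and 23.4%, and STAT (Gzmb and Nkg7) in 2 of 6 and 8.3%. The cyclic AMP response motif TGACGTCA was in 0 of 6 and in 1.79%. These are matches of letters only.

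All 7 genes were low in this tissue. Per kilobase of exon, Nkg7 had the highest mean level in every group, with 10.0 CPM per kilobase (SD 3.24, n = 5) in dual ICI mice at 3wk and 1.17 (SD 0.80, n = 3) in cured mice. Ctsw was next in every group but untreated mice at 5wk, at 3.66 (SD 0.68, n = 5) in dual ICI mice at 3wk, and Gzmk or Fasl was lowest, Fasl at 0.52 (SD 0.40, n = 5) in the same mice. Raw counts reached 457 for Nkg7 and 301 for Ctsw, but stayed between 0 and 93 for Gzmk and between 0 and 89 for Fasl, with 3 counts or fewer in 11 libraries for Gzmk, 2 for Fasl and 1 for Gzma. Because of this, Gzmk passed the filter on low counts in 6 of the 10 fits and Fasl in 7 of 10, while the other 5 genes were tested in all of them. All 6 fits of Gzmk held dual ICI mice at 3wk or uncured mice, the groups where its mean was highest.

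**Figure D1:**
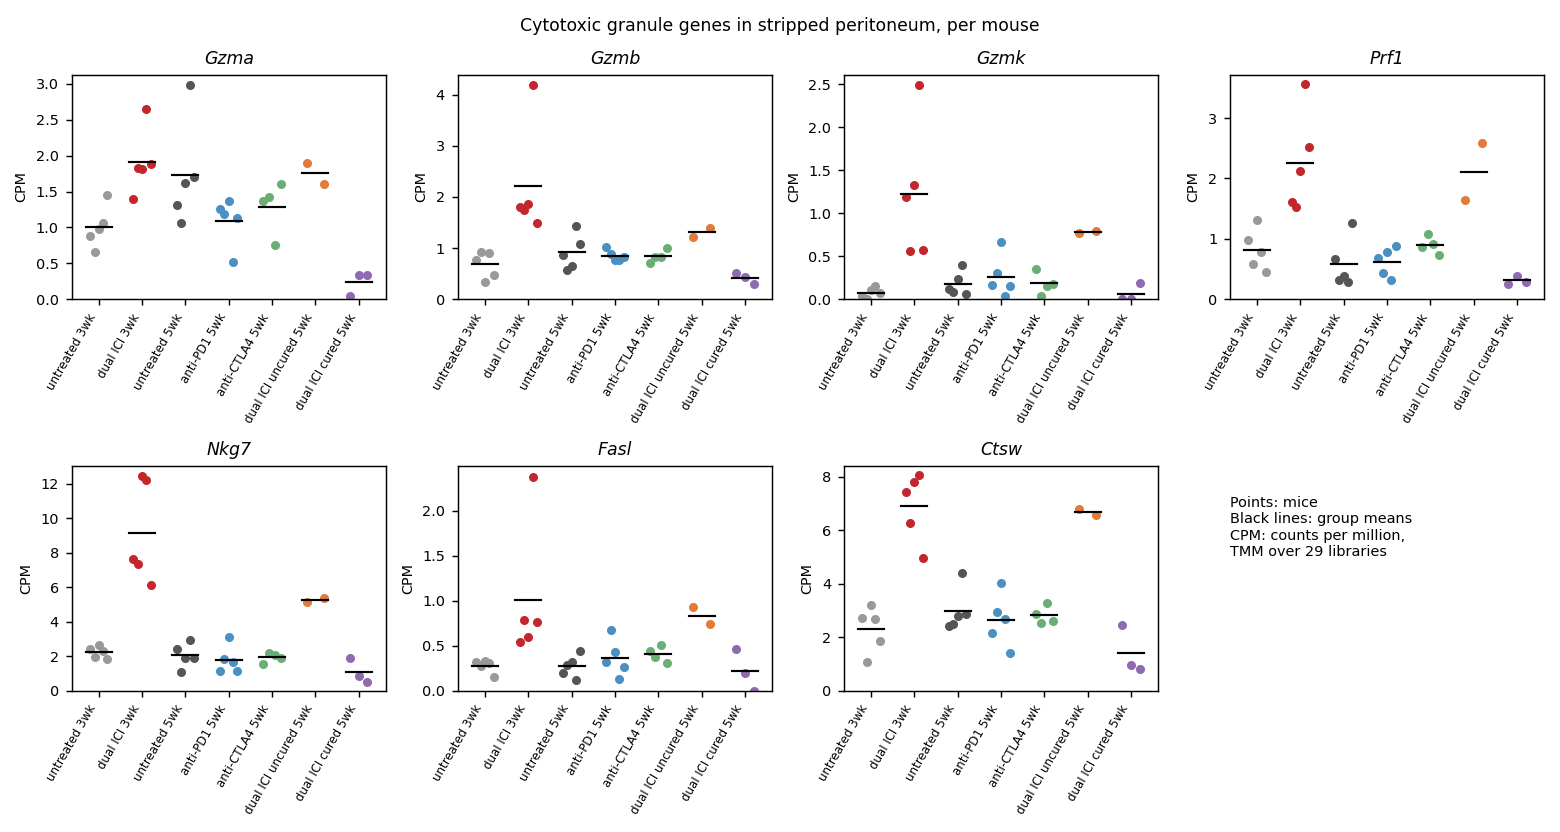
Level of each gene in each mouse, in CPM on a linear axis from 0, by group of treatment, week and outcome; points are mice and black lines are group means. The means of dual ICI mice at 3wk and of the 2 uncured mice at 5wk are the highest for all 7 genes, while for Gzma the mean of untreated mice at 5wk (1.73 CPM) is near that of the uncured mice (1.75).

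The order of the groups by mean level put dual ICI at 3wk first and dual ICI-uncured second for all 7 genes, and dual ICI-cured last for all 7. From the third to the sixth place, neighbouring groups overlapped for every gene. For Gzmk, Prf1, Fasl and Ctsw, a gap without overlap between neighbours was present only below the uncured mice. Nkg7 had gaps on both sides of the uncured mice, Gzmb only between dual ICI at 3wk and the uncured mice, and Gzma only above the cured mice. The share of all genes with this order or with such gaps was not computed. Lower levels in cured than in untreated mice were common, with 26.7% of 15816 genes called lower (edgeR). Both uncured mice were above all 5 untreated mice at 5wk for 9.22% of 16156 genes.

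At 3wk, where untreated and dual ICI mice were compared in 5 mice each, all 7 genes were higher with dual ICI. Nkg7, Gzmk and Ctsw rose at an adjusted p under 0.05 (edgeR), 3 of 7, where 0.471% of the 15503 genes tested were called higher. All 7 had an unadjusted p under 0.05, against 6.02% of all genes in that direction, and in 6 of 7, all but Gzma, every dual ICI mouse was above every untreated mouse, as for 1.83% of all genes. Gzmk and Fasl passed the filter on low counts here through the dual ICI mice. Untreated mice had at most 5 counts of Gzmk and 10 of Fasl. Their place in these counts is therefore not independent of the filter, while Nkg7 and Ctsw had more counts in both groups. The median log2 fold change of the 7 was 1.71, and that of all genes tested was 0.02.

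The 3 granzymes differed in size of change. Gzma, a tryptase, had 0.88, 0.66, 0.98, 1.06 and 1.45 CPM in untreated mice 1 to 5 and 1.40, 1.83, 1.82, 2.65 and 1.88 in dual ICI mice 1 to 5. The groups overlapped by 1 mouse each, and the log2 fold change of 0.94 (SE 0.26) did not pass the threshold (edgeR adjusted p = 0.160). Gzmb had 0.77, 0.93, 0.33, 0.90 and 0.48 CPM in untreated mice, and 1.81, 1.75, 1.85, 4.20 and 1.496 in dual ICI mice. Dual ICI mouse 4 stood far above the other 4, which lay close together and still above all untreated mice. The log2 fold change was 1.71 (SE 0.38, edgeR adjusted p = 0.0761), and 1.32 without mouse 4. Gzmk, a granzyme of memory-like CD8 T cells, had 1, 0, 3, 5 and 2 counts in untreated mice and 29, 15, 40, 93 and 18 in dual ICI mice. Its log2 fold change of 3.94 (SE 0.63, edgeR adjusted p = 0.0224) rests on 11 counts in all untreated mice together.

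Perforin had 0.98, 0.58, 1.31, 0.78 and 0.45 CPM in untreated mice and 1.605, 1.53, 2.12, 3.56 and 2.52 in dual ICI mice. The groups did not overlap, and the log2 fold change was 1.48 (SE 0.34, edgeR adjusted p = 0.0901). Nkg7 had 2.38, 1.94, 2.65, 2.30 and 1.82 CPM in untreated mice, and 7.65, 7.34, 12.4, 12.2 and 6.11 in dual ICI mice. Untreated mice were close together and the lowest dual ICI mouse was above 6 CPM, and Nkg7 rose by a log2 fold change of 2.05 (SE 0.24, edgeR adjusted p = 0.00681). Ctsw had 2.698, 1.08, 3.20, 2.67 and 1.86 CPM in untreated mice and 7.45, 6.26, 7.81, 8.05 and 4.97 in dual ICI mice, again without overlap, and rose by 1.59 (SE 0.27, edgeR adjusted p = 0.0281) on the log2 scale. Fasl had 9, 7, 9, 10 and 4 counts in untreated mice and 13, 21, 18, 89 and 24 in dual ICI mice. Mouse 4 again stood apart, and the log2 fold change was 1.89 (SE 0.47, edgeR adjusted p = 0.119), or 1.26 without it.

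DESeq2, the tool of the study, called all 7 genes at 3wk, with adjusted p from 3.22e-13 (Nkg7) to 0.0222 (Gzma), and called 323 of all genes higher where edgeR called 73. In edgeR, Nkg7 was called with each of the 10 mice left out in turn (adjusted p 0.0101 to 0.0432), while the number of the 7 called fell from 3 to 1 without untreated mouse 1, 4 or 5 or dual ICI mouse 3. Without dual ICI mouse 4 it was 2, since the adjusted p of Ctsw became 0.0528.

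**Figure D2:**
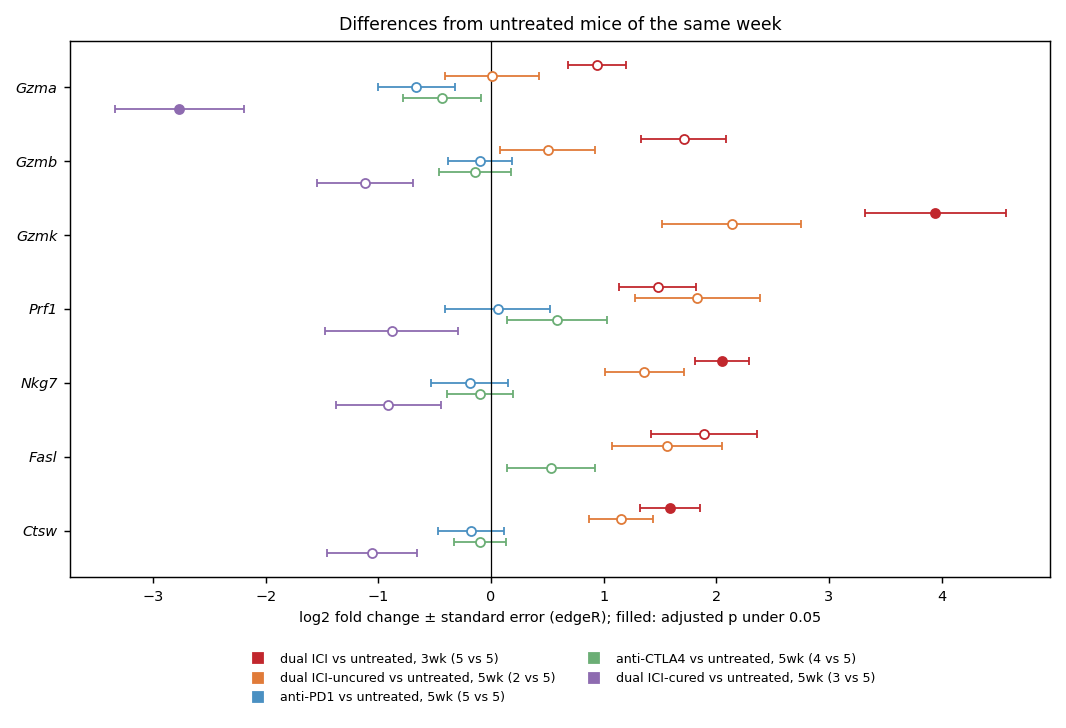
Log2 fold change of each gene against untreated mice of the same week (edgeR), with bars of 1 standard error and filled points where the adjusted p was under 0.05; genes that failed the filter on low counts have no point. Filled points are Gzmk, Nkg7 and Ctsw for dual ICI at 3wk and Gzma for dual ICI-cured at 5wk, and the monotherapies lie around 0.

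Of 11 genes that build and release granules, all had a log2 fold change above 0 with dual ICI at 3wk, 2 passed the adjusted threshold and 5 the unadjusted one, with Srgn, which encodes the serglycin matrix (0.92, SE 0.17, edgeR adjusted p = 0.0418), and Cst7, an inhibitor of granule proteases (1.28, SE 0.25, edgeR adjusted p = 0.0467). Ctsc, the protease that activates pro-granzymes, had a log2 fold change of 0.55 (SE 0.15, edgeR adjusted p = 0.169), and the median of the 11 was 0.38. Of the 7 other granzymes only Gzmm passed the filter, at -0.26 (SE 0.30). Among 10 death receptors, granzyme targets and inhibitors, 2 had an unadjusted p under 0.05 and 0 were called, with Tnfsf10, the death ligand TRAIL, at 0.84 (SE 0.23, edgeR adjusted p = 0.158). Serpinb9, the inhibitor of granzyme B, was at 0.29 (SE 0.32). Of 10 effector transcription factors and cytokines tested, 5 had an unadjusted p under 0.05 and 0 were called, with Ifng at 2.20 (SE 0.44, edgeR adjusted p = 0.0539) and Tbx21, the T-box factor T-bet, at 0.70 (SE 0.22, edgeR adjusted p = 0.242).

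Markers of the cells that can carry these granules were measured beside them. Both CD8 genes rose at 3wk, Cd8a by 2.31 (SE 0.35, edgeR adjusted p = 0.0193) and Cd8b1 by 2.53 (SE 0.39, edgeR adjusted p = 0.0222), and their summed level was 1.94 to 5.57 CPM in untreated and 11.3 to 32.0 CPM in dual ICI mice. Of 10 T cell genes, all were higher, all had an unadjusted p under 0.05 and 4 were called (Cd3g, Cd247, Zap70 and Lat), with Cd3e at 1.43 (SE 0.28, edgeR adjusted p = 0.0530). Of 6 NK cell genes, 5 were tested. All 5 were higher (median log2 fold change 0.72), 1 had an unadjusted p under 0.05 and 0 were called. Ncr1, the NK receptor NKp46, was at 0.72 (SE 0.38) and Klrb1c at 0.43 (SE 0.30). The summed level of the NK cell genes ran from 4.84 to 6.62 CPM in untreated and from 5.82 to 17.3 CPM in dual ICI mice. Cd4 was at 0.95 (SE 0.24, edgeR adjusted p = 0.125) and Foxp3 at 0.19 (SE 0.31). Mast cells also store granule proteases; 0 of 8 mast cell genes had an unadjusted p under 0.05, and Cpa3 was at 0.21 (SE 0.22). Of 8 macrophage genes, 7 had an unadjusted p under 0.05 and 0 were called, of 5 neutrophil genes 1 and 0, and of 4 B cell genes 1 and 0. Of 6 adipocyte genes, 4 were lower at an unadjusted p under 0.05 and 0 were called, of 10 gastric epithelium genes 1 was called lower (Gkn3), and 0 of 14 skeletal muscle and 0 of 6 fibroblast genes had an unadjusted p under 0.05. The part of each cell type in the change of the 7 genes was not tested.

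**Figure D3:**
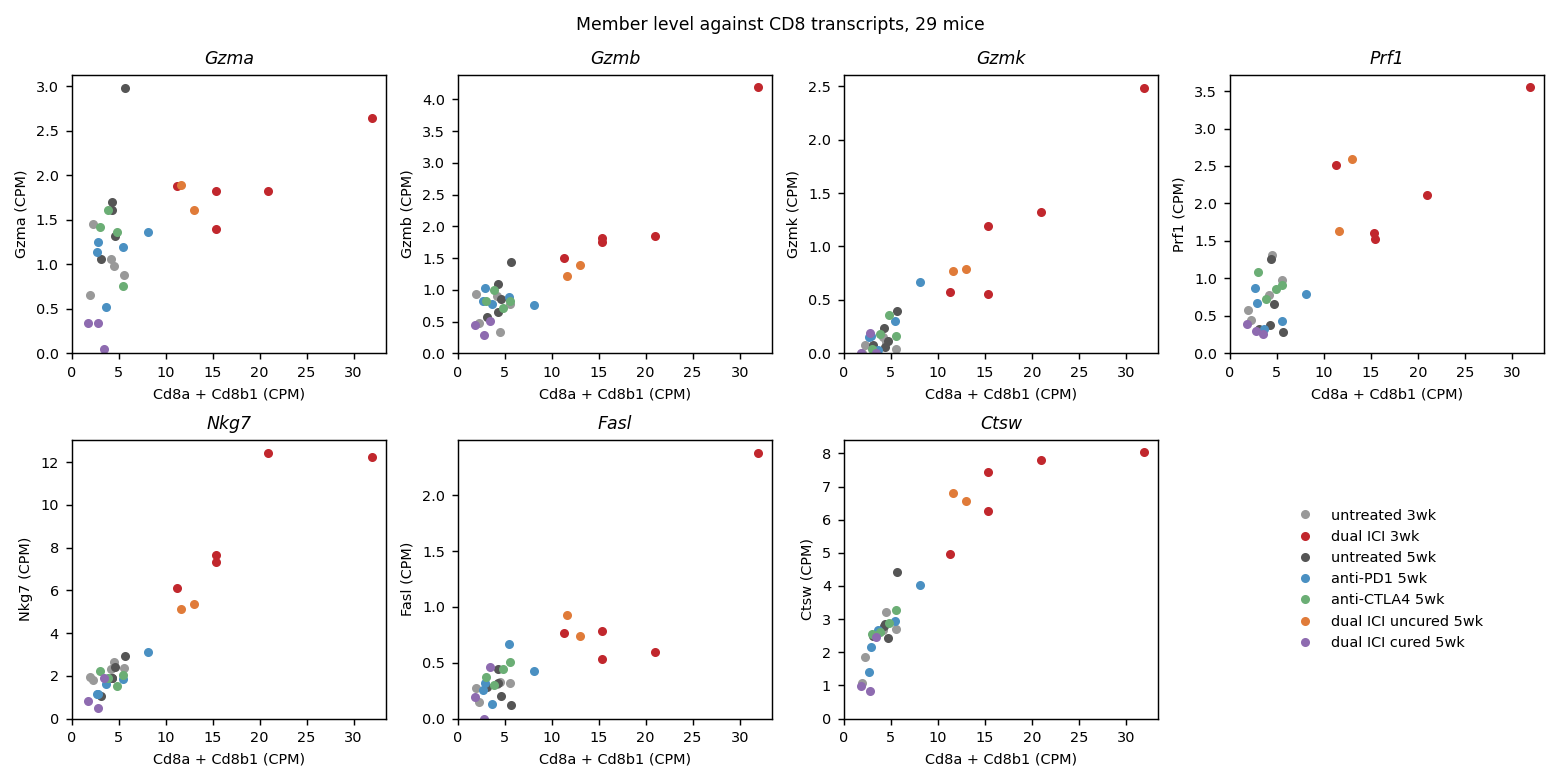
Level of each gene against the summed level of Cd8a and Cd8b1, both in CPM on linear axes, with 1 point per mouse (29 mice) coloured by group. Ctsw and Nkg7 follow the CD8 level most closely (Pearson r on the log2 scale 0.92 for both) and Gzma least (0.52).

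Across the 29 libraries, the genes whose log2 CPM was most like each member, among 16752 genes with the members themselves left out, included Cd8a for 4 of the 7. For Gzmk they were Cd8b1 (Pearson r = 0.89), Cd8a (0.87) and Lat (0.85). For Ctsw they were Cd8a (0.93), Cd3d (0.93) and Cd3g (0.92), for Nkg7 Cxcr6 (0.94), Cd8a (0.93) and Themis (0.91), and for Fasl Themis (0.78), Cd8a (0.75) and Gimap7 (0.74). Prf1 was most like Btnl2 (0.90), Itgal (0.87) and Slamf7 (0.86), Gzmb like Psmb9 (0.84), Ccl5 (0.84) and Clec7a (0.84), and Gzma like Fpr2 (0.87), 2700099C18Rik (0.83) and Bcl2a1a (0.83). With the group means taken out, the highest r among the 21 pairs of members was that of Nkg7 and Ctsw (0.77, and 0.91 over all mice), followed by Gzma and Gzmk (0.55 and 0.64), while Gzma and Nkg7 were at -0.09 within groups and 0.54 over all. These are descriptions, over mice that share treatment, week and tissue make-up.

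To ask whether each gene rose as far as the CD8 transcripts did, its CPM was set over the sum of Cd8a and Cd8b1 in the same mouse. At 3wk the summed reads per 100 CD8 reads were 26.8 in untreated and 9.97 in dual ICI mice for Gzma, 21.9 and 12.0 for Prf1, 62.2 and 35.1 for Ctsw, and 7.37 and 5.56 for Fasl. For these 4 genes the log2 ratio per mouse was lower with dual ICI by an exact two-sided permutation test over 5 and 5 mice, by 1.46 for Gzma (-3.18 against -1.71, p = 0.0159), by 0.97 for Prf1 (-2.99 against -2.02, p = 0.0317), by 0.95 for Fasl (-4.21 against -3.26, p = 0.0238) and by 0.73 for Ctsw (-1.37 against -0.64, p = 0.00794, the smallest this design can give). Only for Ctsw did the groups not overlap, and with 1 mouse left out at a time Prf1 passed in 4 of 10 cases, against 10 of 10 for Gzma, Fasl and Ctsw. Gzmb went from 18.3 to 11.8 reads per 100 CD8 reads (difference -0.80, exact permutation p = 0.0873), Nkg7 from 59.4 to 47.4 (-0.39, p = 0.135), and Gzmk the other way, from 2.08 to 6.57 (0.46, p = 0.206). These are 7 of 21 such tests, with no adjustment, and the share of all genes with a lower ratio was not computed.

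The direction of these ratios depended on the T cell genes chosen as the denominator. Over the summed level of 10 T cell genes in place of the CD8 genes, the difference was 0.73 for Nkg7 (exact permutation p = 0.00794), 0.38 for Ctsw (p = 0.0238) and 1.58 for Gzmk (p = 0.00794), all higher with dual ICI. Gzmb (0.32), Prf1 (0.15) and Fasl (0.17) turned positive without passing, and Gzma stayed negative at -0.35 (exact permutation p = 0.119). A larger pseudocount of 0.5 CPM turned Gzmk to -0.73, and one of 0.01 CPM gave 1.78, so the ratio of this low gene follows the pseudocount. With 0.01 CPM the ratio of Fasl, also a low gene, was -0.72 at 3wk and no longer passed (exact permutation p = 0.0635).

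**Figure D4:**
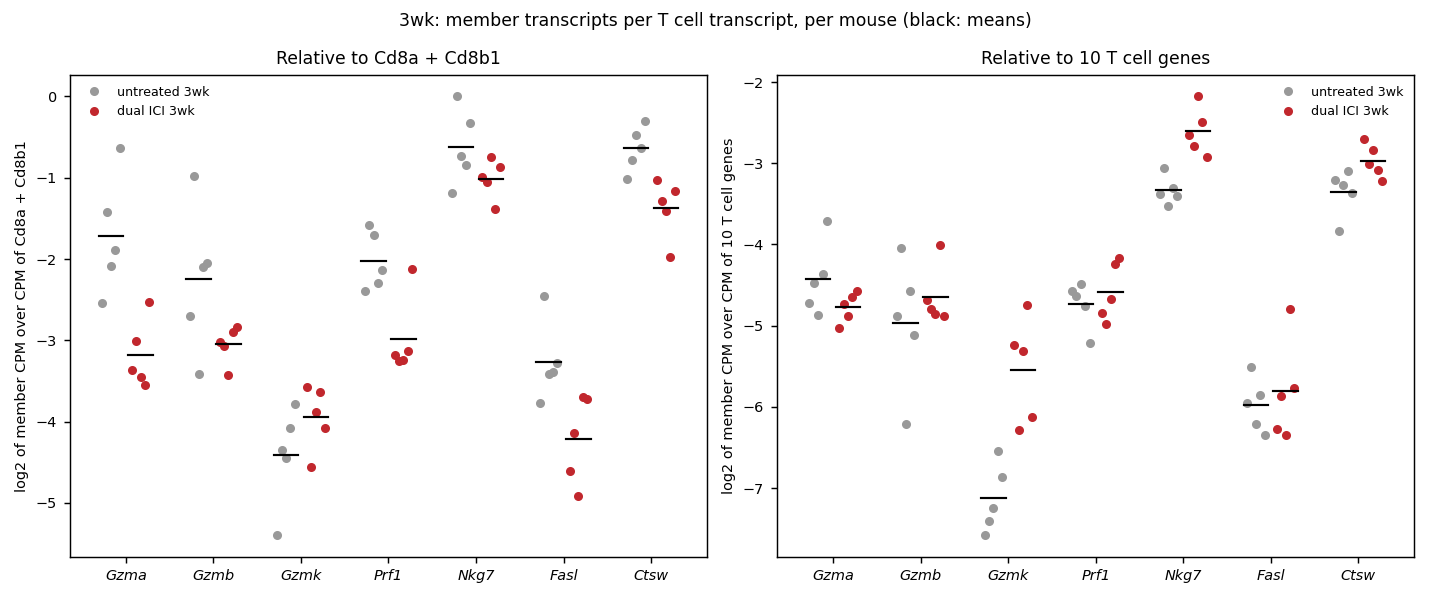
Log2 ratio of each gene's CPM to the CPM of Cd8a and Cd8b1 (left) and of 10 T cell genes (right) in untreated (grey) and dual ICI (red) mice at 3wk, 1 point per mouse with black lines at the means. Ctsw is lower in every dual ICI mouse on the left and its mean is higher on the right.

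Among the 7 genes, the make-up of the summed level per kilobase differed between treatments at 3wk. Nkg7 made up 43.3% (SD 3.57, n = 5) in untreated and 51.3% (SD 4.68, n = 5) in dual ICI mice, Gzma 18.0% (SD 5.96) and 10.1% (SD 2.28), and Gzmk 0.90% (SD 0.70) and 4.26% (SD 1.61). At 5wk, Gzma held 25.3% (SD 3.26, n = 5) in untreated mice and 12.7% (SD 1.62, n = 2) in uncured mice. These shares were not tested.

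**Figure D5:**
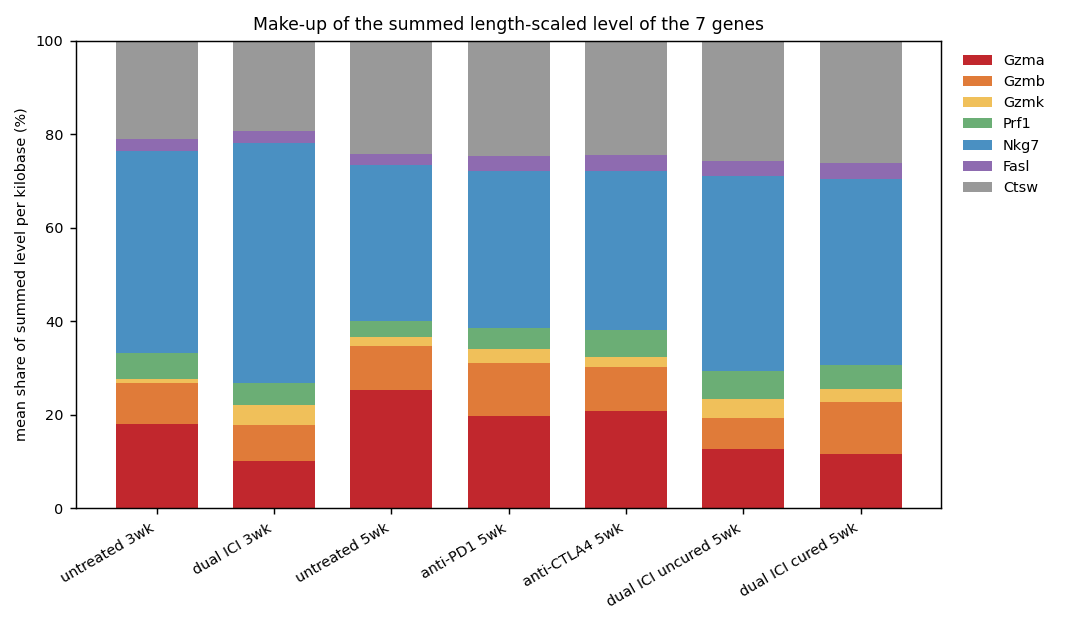
Mean share of each gene in the summed level per kilobase of exon of the 7 genes, in percent, by group. Nkg7 is the largest share in each group (33.2% to 51.3%), and the share of Gzma is highest in untreated mice at 5wk (25.3%).

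At 5wk, the uncured mice were compared with untreated mice to ask how mice with tumor left after dual ICI differ. Of the 7 genes 0 were called (edgeR), as were 0% of all 16156 genes tested, and 5 of 7 had an unadjusted p under 0.05, against 2.74% of all genes in that direction. DESeq2 also called 0 of the 7. In the same 5, both uncured mice were above all 5 untreated mice, as for 9.22% of all genes. Prf1 had 1.64 and 2.59 CPM in uncured mice 1 and 5, against 0.66, 0.33, 0.38, 0.28 and 1.26 without treatment, and its log2 fold change was 1.83 (SE 0.56, edgeR adjusted p = 0.734). Nkg7 had 5.14 and 5.37 CPM against 2.43, 1.06, 1.91, 2.90 and 1.88 in untreated mice, and Ctsw had 6.80 and 6.57 against 2.43, 2.48, 2.78, 4.42 and 2.85. Their log2 fold changes were 1.36 (SE 0.35) and 1.15 (SE 0.29), with edgeR adjusted p = 0.734 for both. Gzmk had 24 and 29 counts against 4, 2, 8, 10 and 2 (2.14, SE 0.62), and Fasl 29 and 27 counts against 7, 7, 11, 3 and 15 (1.56, SE 0.48). Gzmk passed the filter on low counts in this fit only through the uncured mice.

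Gzma and Gzmb were not apart in the same comparison. Gzma had 1.89 and 1.61 CPM in the uncured mice and 1.32, 1.06, 1.61, 2.98 and 1.70 in untreated mice, with a log2 fold change of 0.01 (SE 0.42). The uncured mice lay inside the range of the untreated mice. Gzmb had 1.22 and 1.39 CPM against 0.86, 0.57, 0.64, 1.43 and 1.09, a log2 fold change of 0.50 (SE 0.42). With all 5 dual ICI mice of the label as 1 group, 0 of the 5 members tested (without Gzmk and Fasl) had an unadjusted p under 0.05, where 1071 of all 15588 genes did (687 higher), and the log2 fold changes became -1.01 for Gzma and -0.23 for Gzmb.

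In the same comparison 0 genes of any list were called. All 14 skeletal muscle genes (median log2 fold change -1.11) and all 6 adipocyte genes (median -0.97) were lower in uncured mice. Of these, 0 muscle genes and 1 adipocyte gene had an unadjusted p under 0.05. Muscle genes held 5.65% to 19.8% of the counts of untreated mice and 5.19% to 7.41% of those of uncured mice. The part of this in the result was not tested. Cd8a was at 1.43 (SE 0.31), Cd8b1 at 1.58 (SE 0.30), Cd4 at 1.31 (SE 0.28) and Foxp3 at 0.94 (SE 0.33), and 7 of 10 T cell genes, 2 of 5 NK cell genes, 3 of 11 genes of granule assembly and release and 0 of 10 death receptors, granzyme targets and inhibitors were higher at an unadjusted p under 0.05. Runx3, a transcription factor of CD8 T cells, was at 1.24 (SE 0.29) and Il2rb at 1.00 (SE 0.24), both with edgeR adjusted p = 0.734. Of the other granzymes 3 were tested, with 2 higher, Gzme at 1.67 (SE 0.71) and Gzmc at 0.35 (SE 0.57), and 1 lower. Gzmm had 1.19 CPM per kilobase (SD 0.51, n = 2) in uncured and 2.79 (SD 1.91, n = 5) in untreated mice. Relative to the CD8 transcripts, the 7 genes differed by -1.39 (Gzma) to 0.36 (Prf1) on the log2 scale, and Gzma and Gzmb (-0.95) were lower in both uncured mice than in all untreated mice. With 2 mice against 5, the exact two-sided permutation test cannot go below 0.0952, which both reached. The share of all genes with a lower ratio to CD8 was not computed.

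Against the 9 mice on a single antibody, the uncured mice were higher in all 7 genes. Again 0 were called by edgeR, as were 0% of 16260 genes, while 6 of 7, all but Gzma, had an unadjusted p under 0.05 (3.39% of all genes in that direction) and no overlap (5.3% of all genes). The log2 fold changes were 1.73 (SE 0.67) for Gzmk, 1.51 (SE 0.35) for Prf1, 1.51 (SE 0.29) for Nkg7, 1.29 (SE 0.26) for Ctsw, 1.11 (SE 0.41) for Fasl, 0.62 (SE 0.21) for Gzmb and 0.57 (SE 0.34) for Gzma. DESeq2 called Nkg7, Ctsw and Prf1 (adjusted p 0.00297, 0.00297 and 0.0228), where it called 60 of all 20320 genes higher. These comparisons share the 2 uncured mice with those above. The 9 mice include anti-PD1 mouse 5, whose gastric epithelium genes summed to only 61.7 CPM. All 14 skeletal muscle genes were lower in the uncured mice (median log2 fold change -1.09), 0 of them at an unadjusted p under 0.05. The part of tissue make-up in the result was not tested.

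For each antibody alone against untreated mice, few genes of any kind differed. By edgeR, 0 of the members tested had an unadjusted or adjusted p under 0.05 with anti-PD1 (5 tested, without Gzmk and Fasl) or with anti-CTLA4 (6 tested, without Gzmk), and by DESeq2 both counts were also 0. Of all genes, 0% were called in either comparison, while 0.633% were higher and 0.678% lower at an unadjusted p under 0.05 with anti-PD1 (15640 tested), and 0.291% higher and 0.52% lower with anti-CTLA4 (15781 tested), so the members' counts were those of genes in general. With anti-PD1 the log2 fold changes ran from -0.66 (SE 0.34, Gzma) to 0.06 (SE 0.47, Prf1), and with anti-CTLA4 from -0.44 (SE 0.35, Gzma) to 0.59 (SE 0.44, Prf1). Gzmb had 0.85 CPM (SD 0.11, n = 5) with anti-PD1, 0.84 (SD 0.12, n = 4) with anti-CTLA4 and 0.92 (SD 0.35, n = 5) untreated. With standard errors of 0.23 to 0.47 in both comparisons, equal levels were not shown either. Anti-PD1 mouse 5, whose gastric epithelium genes were low, had 1.14 CPM of Nkg7 and 1.39 CPM of Ctsw, the lowest of its group for both.

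In the cured mice all members were at their lowest mean. Gzma had 1, 7 and 7 counts in mice 2, 3 and 4, or 0.05, 0.34 and 0.34 CPM, all below every untreated mouse, and fell by a log2 fold change of 2.77 (SE 0.57, edgeR adjusted p = 0.00451) against untreated mice. It was the 1 gene called of the 5 tested, where 26.7% of 15816 genes were called lower. With Gzmb (-1.12, SE 0.43) and Ctsw (-1.06, SE 0.40), 3 had an unadjusted p under 0.05, against 30.5% of all genes. Lower levels were thus common among all genes in this comparison. Nkg7 (-0.91, SE 0.47) and Prf1 (-0.88, SE 0.59) did not pass. Cured mouse 2 had the highest Nkg7 and Ctsw of the 3, and without it the log2 fold changes were -1.59 for Nkg7 (edgeR adjusted p = 0.0375) and -1.70 for Ctsw (edgeR adjusted p = 0.0122), against -0.56 for Nkg7 without cured mouse 4. Gzmk had 0, 0 and 4 counts and Fasl 9, 4 and 0, and neither was tested. The count called was 2 with DESeq2, 2 with upper-quartile scaling and 4 with all libraries in 1 fit.

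Against the cured mice, all 7 genes were called higher in the uncured mice (edgeR), where 36.9% of 15796 genes were called higher. Gzmk and Fasl passed the filter on low counts here through the uncured mice, since cured mice had at most 4 and 9 counts. Their calls are therefore not independent of the filter. The log2 fold changes ran from 1.63 (SE 0.39, Gzmb) to 3.45 (SE 0.85, Gzmk), with Prf1 at 2.72 (SE 0.41), and with edgeR adjusted p between 0.000370 (Prf1) and 0.0493 (Fasl). The value for Gzmk rests on 4 counts in cured mouse 4, since the other 2 cured mice had 0, and became 7.39 without that mouse. Fasl lost its call with DESeq2 (adjusted p = 0.134), with median-ratio scaling (edgeR adjusted p = 0.0508) and in 4 of 5 fits with 1 mouse left out, all but that without cured mouse 2 (edgeR adjusted p up to 0.180), and its log2 fold change of 1.90 (SE 0.75) was 2.99 without cured mouse 2 and 1.29 without cured mouse 4. Requiring at least 10 counts in every library left 2 genes to test, both called. Gzmm, a granzyme outside the set, was lower in the uncured mice, with 8.96 to 9.74 CPM in cured and 1.23 to 2.28 in uncured mice (log2 fold change -2.43, SE 0.28, edgeR adjusted p = 7.72e-05). Both groups differed in tumor and muscle content as given above, and the part of this in the result was not tested.

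The last question was whether the genes changed between weeks. Between untreated mice, 0 were called and only Gzma had an unadjusted p under 0.05, higher at 5wk by 0.79 (SE 0.32, edgeR adjusted p = 0.125), where 17.1% of 15604 genes were higher at that threshold. It had 1.00 CPM (SD 0.29, n = 5) at 3wk and 1.73 (SD 0.74, n = 5) at 5wk, with overlap. Between the uncured mice at 5wk and dual ICI mice at 3wk, 0 were called and only Nkg7 had an unadjusted p under 0.05, lower at 5wk by a log2 fold change of -0.82 (SE 0.33, edgeR adjusted p = 0.148), where 15.4% of 16135 genes were lower. Both uncured mice were below all 5 dual ICI mice at 3wk for Nkg7, and also for Gzmb (-0.79, SE 0.46). The share of all genes below in this way was not computed. In the other direction, both uncured mice were above all 5 for 19.1% of all genes, so such gaps were common. Ctsw was at -0.06 (SE 0.24) and Prf1 at -0.12 (SE 0.40).

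The effect of dual ICI against untreated mice was also compared between weeks, in 1 fit with an interaction term. By edgeR, 0 of 7 genes passed, adjusted or unadjusted, where 0% of 16542 genes were called and 2.86% were above and 3.49% below 0 at an unadjusted p under 0.05. DESeq2 called 0, with 2 at an unadjusted p under 0.05. Of the 7 terms 6 were below 0. The median term of all genes was -0.04, and the share of all genes below 0 was not computed. Gzmk passed the filter on low counts in this fit through the dual ICI mice, since untreated mice had at most 5 counts at 3wk and 10 at 5wk. The terms nearest to the unadjusted threshold were Gzmb at -1.20 (SE 0.60) and Gzma at -0.92 (SE 0.47), the largest was Gzmk at -1.80 (SE 0.98), and Nkg7 was at -0.68 (SE 0.42). Those of Prf1 (0.36, SE 0.65), Fasl (-0.31, SE 0.72) and Ctsw (-0.42, SE 0.42) were smaller than or close to their standard errors. The library codes of the 2 weeks run in different number series, and what the codes stand for is not given in the sources used here, so week and whatever they mark cannot be told apart.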

How the data were processed

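The deposited values were raw counts per gene and library in 1 table, without normalization. Per the labels, the authors aligned reads to mm10 with STAR 2.7.0f and counted them with featureCounts 1.6.4, while the study's methods name an earlier STAR and HTSeq, with paired-end reads of 150 bp. The strand setting and annotation of the counting are not given in the sources used here.

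Each comparison was fitted to the counts of its own groups by the quasi-likelihood test of edgeR 4.0.16, run under R 4.3.3 (scaling by TMM, filterByExpr by group, glmQLFit and glmQLFTest, Benjamini-Hochberg adjustment over all genes tested, threshold 0.05), and the standard error of a log2 fold change was its size over the square root of F. The study's own tool, DESeq2 1.42.0, was an alternative. CPM used TMM factors over all 29 libraries. Ratios to CD8 used a pseudocount of 0.1 CPM and exact permutation tests over mice. Gene positions and exon lengths came from GENCODE vM21, and promoters from RefSeq. Genes named were the members, list genes past the adjusted threshold or defining a cell type, and the 3 most correlated genes outside the set per member (log2 CPM, prior count 2). Tnfsf10, Ctsc, Serpinb9, Ifng, Tbx21, Runx3, Il2rb, Gzmc, Gzme and Gzmm were named as well, chosen after their values were seen. The members and lists were chosen with earlier results of these data known.

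Each library is 1 mouse. All 50 pairs of replicates differed by more than sampling noise (chi-square per gene 13.5 or more). Uncured and cured mice were told apart by matching library numbers to the study's mouse numbers, since the labels give treatment and day only. Depth was even (25989217 to 31219650 counts), and with the TMM factors 1 count was 0.0267 to 0.0516 CPM, so values of a few counts are imprecise. Alternatives were DESeq2, upper-quartile and median-ratio scaling, other filters, all 29 libraries in 1 fit, a block for the library number, leaving out single mice, skeletal muscle genes left out and all 5 dual ICI mice as 1 group. A pseudocount of 0.01 CPM was added after seeing the data. The scripts were tested on simulated data. Figures used matplotlib 3.10.9. One gene of the lists is not reported by name here.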

Additional observations from a re-analysis of the deposited data

Results flagged for a closer look

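Of 35 combinations of gene and group with 4 or 5 mice, 4 held a mouse whose gap to its nearest neighbour, over the range of the group, was above Dixon's 95% critical value. Chance alone flags about 1 in 20. At 3wk, dual ICI mouse 4 had 4.20 CPM of Gzmb where the next mouse had 1.85, and 2.38 CPM of Fasl where the next had 0.78. The same mouse had the highest summed CD8 level, 32.0 CPM. At 5wk, untreated mouse 4 had 4.42 CPM of Ctsw where the next had 2.85, and anti-PD1 mouse 4 had 0.514 CPM of Gzma where the next had 1.14.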

How the results depend on the processing

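At 3wk, DESeq2 called 7 of the members where edgeR called 3 (501 against 89 of all genes). At least 10 counts in every library left 4 members at an unadjusted p under 0.05 at 3wk, 2 for uncured against untreated, 1 for cured against untreated and 2 (2 called) for uncured against cured, because fewer were tested. With all 5 dual ICI mice as 1 group against untreated mice, 0 passed unadjusted, and the log2 fold changes of Gzma and Gzmb were -1.01 and -0.23. For cured against untreated mice, 2 were called with DESeq2, 2 with upper-quartile scaling and 4 with all 29 libraries in 1 fit. DESeq2 called 3 for uncured mice against both monotherapies. With all libraries in 1 fit, unadjusted counts were 1 for anti-PD1, 0 for uncured at 5wk against dual ICI at 3wk and 1 for the interaction, which had 2 with DESeq2. The causes were not tested.

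The ratios to CD8 turned sign most often. With the T cell list below the line they were 0.32 (Gzmb), 0.15 (Prf1), 0.73 (Nkg7), 0.17 (Fasl) and 0.38 (Ctsw) at 3wk, 0.45 (Nkg7), 0.43 (Fasl) and 0.22 (Ctsw) for uncured against untreated mice, and -0.0089 (Gzma) and -0.31 (Gzmk) for uncured mice against dual ICI at 3wk. A pseudocount of 0.5 gave -0.73 for Gzmk at 3wk, and -0.46 (Gzmk) and -0.082 (Prf1) for uncured against untreated mice, where 0.01 gave 0.18 for Fasl.

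Of 29 same-numbered pairs of mice, 9 had a correlation of deviations over 0.1 (range -0.65 to 0.64). Pairs of unlike number were not compared, so this check cannot decide whether library numbers pair the mice. With the number as a block, 4 members were called at 3wk, 0 for uncured and 1 for cured against untreated mice. The unadjusted count became 1 for anti-CTLA4 and 0 for uncured at 5wk against dual ICI at 3wk, where Gzma (0.081), Prf1 (0.021), Fasl (0.33) and Ctsw (0.12) turned positive. Prf1 for cured against untreated mice became -0.061. For uncured against cured mice, alone among the comparisons, no block could be fitted. No paired analysis was possible because uncured and cured mice, in that comparison, share no number.

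Leaving out 1 mouse at a time, the count called ran from 1 to 3 at 3wk, from 1 to 3 for cured against untreated mice (3 without cured mouse 2 or untreated mouse 2) from 6 to 7 for uncured against cured mice (Fasl lost) and from 0 to 1 for untreated at 5wk against 3wk (1 without untreated 5wk mouse 2). Unadjusted counts ran from 1 to 4 for cured against untreated mice (1 without cured mouse 3 or 4 or untreated mouse 4), 0 to 1 for anti-PD1 (1 without untreated mouse 2), 0 to 1 for anti-CTLA4 (1 without untreated mouse 5), 0 to 1 for uncured at 5wk against dual ICI at 3wk (0 without either uncured mouse or dual ICI mouse 3 or 4), 0 to 2 for untreated at 5wk against 3wk (2 without 5wk mouse 5, and 0 without 5wk mouse 4 or 3wk mouse 1, 2 or 3) and 0 to 3 for the interaction (3 without untreated 5wk mouse 2, 2 without untreated 3wk mouse 4). Log2 fold changes that turned sign ran from -0.11 to 0.28 for Gzma (uncured against untreated), from -0.22 to 0.11 for Gzmb and -0.11 to 0.56 for Prf1 (anti-PD1), from -0.26 to 0.063 for Gzmb, -0.25 to 0.057 for Nkg7 and -0.17 to 0.080 for Ctsw (anti-CTLA4), from -0.26 to 0.013 for Gzma, -0.48 to 0.19 for Prf1, -0.47 to 0.31 for Fasl and -0.15 to 0.014 for Ctsw (uncured at 5wk against dual ICI at 3wk), from -0.29 to 0.028 for Nkg7 (untreated at 5wk against 3wk), and from -0.0051 to 0.86 for Prf1 and -0.49 to 0.30 for Fasl (interaction). The ratio to CD8 ran from -0.38 to 0.13 for Fasl (uncured against untreated) and from -0.022 to 0.22 for Gzmk (uncured against dual ICI at 3wk).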
